A study of Mus musculus with 10 samples.

Results

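The 6 entries described here are mature miRNA names whose hairpins lie in genes of small nucleolar RNAs (snoRNAs) or small Cajal body RNAs (scaRNAs): mmu-miR-1839-5p, mmu-miR-1839-3p, mmu-miR-664-5p, mmu-miR-664-3p, mmu-miR-6516-5p and mmu-miR-3535, written below without the species prefix. They are 6 of the 1907 entries of the count table, taken by name, and all 6 passed the filter on low counts that left 481 entries for testing. They are treated as selected on their fold changes against wild type, which were known when they were chosen. Values against wild type are therefore given as a description, without a test. Tests are given between mutants, but they use the same mutant libraries. Their p-values are thus not independent of that choice and may overstate a difference.

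Small RNA of mouse E14 embryonic stem cells, a line of 129/Ola background grown in serum with LIF on gelatine, was sequenced in 5 groups of 2 libraries. Ago12_KO cells lack both Ago1 and Ago2, the Argonaute proteins that hold mature strands. Dicer_KO cells lack Dicer, which cuts hairpins into mature duplexes, and their 2 libraries carry 2 clone names. Drosha_KO and Dgcr8_KO cells each lack a subunit of the Microprocessor, the complex that frees hairpins from primary transcripts, and WT libraries came from 2 passages of E14. The labels do not say how the knockouts were made, nor that the other replicates were separate cultures or clones, so the spread behind each p-value may be technical and is that between these samples only.

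Library totals were 349312 and 229407 counts in Ago12_KO, 45222 and 37476 in Dicer_KO, 39511 and 40306 in Drosha_KO, 289539 and 408654 in Dgcr8_KO, and 2357868 and 1943868 in WT. Levels are given as CPM, which is the count of an entry per 1000000 counts of its library. These totals hold miRNA entries only, so a CPM is a share of the counted miRNA reads, and a change per cell cannot be told apart from a change in all other entries. A single count was worth at most 26.7 CPM (Dicer_KO replicate 2) and at least 0.424 CPM (WT replicate 1), and the floor of 3 counts ran from 1.27 to 80.1 CPM. Entries that mark embryonic stem cells (15 names, mostly of the miR-290 and miR-302 clusters) made up 10.4 to 11.4% of the counts in Ago12_KO, 2.25 to 2.39% in Dicer_KO, 20.2 to 20.7% in Drosha_KO, 15.8 to 16.2% in Dgcr8_KO and 17.3 to 18.6% in WT. The 8 fibroblast or feeder markers summed to between 0.0840 and 0.660% in every library, with 3 to 7 of them detected. Both marker sets are themselves miRNAs, which the missing proteins make or hold. Their shares in the mutants therefore do not show cell identity. A set of 5 entries that resemble fragments of longer RNAs took 46.9 to 48.5% of the Dicer_KO counts, against 0.354 to 4.85% in the other groups, and their part in the results was tested only by leaving them out of the library sizes.

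snoRNAs are short nuclear RNAs that guide chemical modification of ribosomal RNA, and scaRNAs do the same for spliceosomal RNAs. C/D box snoRNAs, which guide methylation of the ribose, carry a C box near the 5′ end and a D box near the 3′ end, whereas H/ACA RNAs, which guide pseudouridylation, fold into hairpins and end in an ACA box a few bases before the 3′ end. Some are also cut into small RNAs, and the hairpins of H/ACA RNAs have been reported to yield miRNA-like products through Dicer without the Microprocessor.

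RefSeq (GRCm38.p6) gave the mature sequence of 5 of the 6 entries. They are printed with the other arm of miR-6516, since the arms differ in the results, and the capitals mark the seed, bases 2 to 8, with which a miRNA pairs to its targets.
miR-1839-5p: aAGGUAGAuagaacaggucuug
miR-664-5p: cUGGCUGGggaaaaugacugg
miR-664-3p: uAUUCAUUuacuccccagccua
miR-6516-5p: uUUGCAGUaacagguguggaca
miR-6516-3p: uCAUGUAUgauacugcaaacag
miR-3535: uGGAUAUGaugacugauuaccugaga
These 6 seeds all differ, and none is shared by another entry of the table that matched a RefSeq mature sequence (1623 entries). miR-3535 is the longest at 26 bases, and the others have 21 or 22.

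The entries come from 4 host RNAs (GENCODE M21, GRCm38). miR-1839 lies in a scaRNA gene of 127 bases, itself named Mir1839, on the plus strand of chromosome 7 at 81529855 to 81529981, where the lincRNA 2900076A07Rik has an annotated exon. miR-664 lies in Snora36b, a snoRNA gene of 132 bases on the plus strand of chromosome 1 at 185242907 to 185243038, in an intron of Rab3gap2, which encodes a subunit of a Rab3 GTPase-activating complex. miR-6516 lies in the scaRNA gene Gm26083, 193 bases on the plus strand of chromosome 11 at 117077243 to 117077435, at an exon of the lincRNA Snhg20. miR-3535 lies in the snoRNA gene Gm24148, 80 bases on the minus strand of chromosome 1 at 86352008 to 86352087, inside Ncl, the gene of nucleolin, where an annotated Ncl transcript has an exon. The host sequences are given with the mature entries in capitals, to show where in each RNA the annotated sequences lie.
Mir1839: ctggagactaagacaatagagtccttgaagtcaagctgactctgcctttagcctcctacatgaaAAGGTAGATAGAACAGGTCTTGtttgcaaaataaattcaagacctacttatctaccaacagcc
Snora36b: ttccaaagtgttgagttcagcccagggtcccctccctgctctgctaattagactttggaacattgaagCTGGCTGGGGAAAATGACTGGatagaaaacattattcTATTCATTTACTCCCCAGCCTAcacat
Gm26083: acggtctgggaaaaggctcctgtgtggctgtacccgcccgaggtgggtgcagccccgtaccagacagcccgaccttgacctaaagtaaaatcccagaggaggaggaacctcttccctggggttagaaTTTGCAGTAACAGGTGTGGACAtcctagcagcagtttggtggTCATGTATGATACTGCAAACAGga
Gm24148: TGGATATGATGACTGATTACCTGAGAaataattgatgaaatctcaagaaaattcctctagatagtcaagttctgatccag

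**Figure D1:**
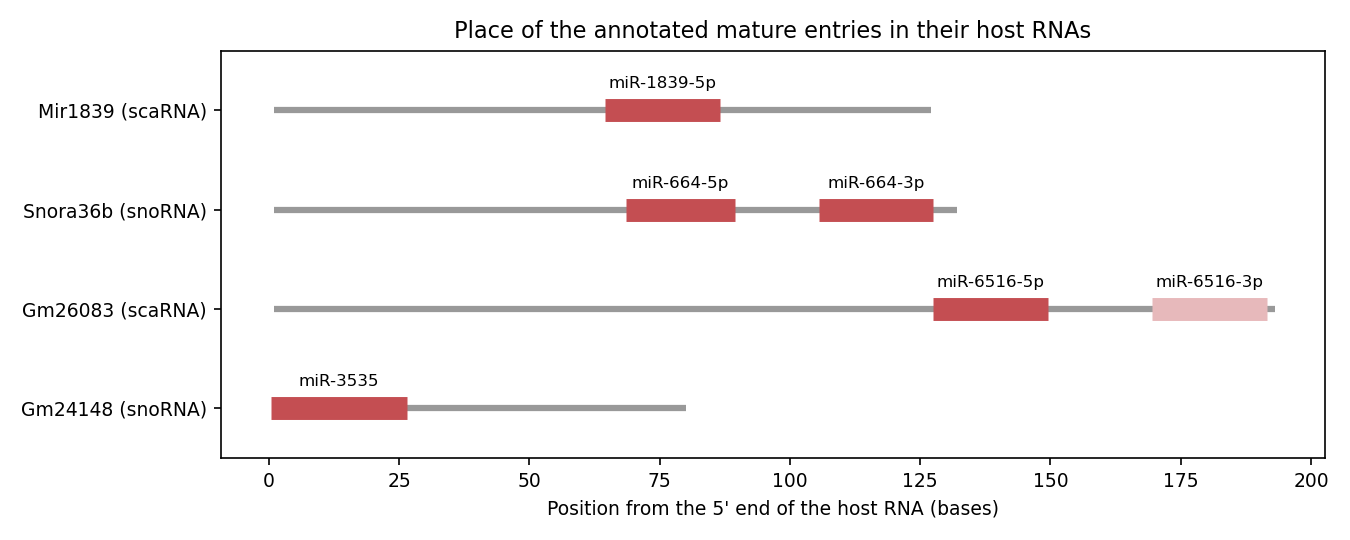
Place of the annotated mature entries (bars) along their host RNAs (grey lines), in bases from the 5′ end of the host. Dark bars are the entries described here and the pale bar is miR-6516-3p. The 5p entries of Mir1839, Snora36b and Gm26083 end 41 to 44 bases before the host's 3′ end, whereas miR-3535 starts at the first base of Gm24148, and miR-1839-3p, without a mature sequence in the table used, is not drawn.

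The hosts are of 2 kinds by their box letters. In Mir1839, Snora36b and Gm26083 the letters ACA stand exactly 3 bases before the 3′ end, as they do in 19.3% of all 1558 annotated snoRNA and scaRNA genes (1.16% on the reverse strand). Gm24148 has no such ACA, but holds TGATGA within its first 20 bases (21.3% of the genes, and 0.321% on the reverse strand) and CTGA within its last 20 (34.8% and 6.10%). In Gm24148 the TGATGA lies inside miR-3535 itself. The mature 5p sequences occupy bases 65 to 86 of Mir1839, 69 to 89 of Snora36b and 128 to 149 of Gm26083, and miR-664-3p and miR-6516-3p lie 5 and 2 bases from the 3′ ends of their hosts. RNAfold gave the RefSeq hairpins of Mir664, Mir1839, Mir6516 and miR-3535 minimum free energies of -28.1, -22.0, -35.2 and -38.3 kcal/mol. Per base these are -0.407, -0.301, -0.32 and -0.261 kcal/mol, against a median of -0.406 over 1005 mouse hairpins. The fold of miR-664 is thus close to the median hairpin, and that of miR-3535 is stronger per base than only 4.78% of them.

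Of the 5 entries in H/ACA-type hosts, miR-1839-5p had the highest mean CPM in every group but Ago12_KO, where it averaged 43.2 CPM and miR-664-5p 44.8 CPM. It had 18 and 8 counts in Ago12_KO (51.5 and 34.9 CPM), 3 and 2 in Dicer_KO (66.3 and 53.4 CPM), 109 and 70 in Drosha_KO (2759 and 1737 CPM), 360 and 522 in Dgcr8_KO (1243 and 1277 CPM), and 116 and 79 in WT (49.2 and 40.6 CPM). Both Microprocessor mutants stood far above the other groups, while Ago12_KO and WT overlapped. The Dicer_KO libraries lay above WT in CPM, but on 5 counts in all. miR-1839-3p, the other arm, had 1 and 0 counts in Ago12_KO, 0 and 0 in Dicer_KO, 15 and 8 in Drosha_KO (380 and 198 CPM), 47 and 70 in Dgcr8_KO (162 and 171 CPM), and 15 and 9 in WT (6.36 and 4.63 CPM). Its order of groups was Drosha_KO, Dgcr8_KO, WT, Ago12_KO and Dicer_KO, of which the last pair overlapped. A count of 0 in Dicer_KO allows up to 66.3 and 80.1 CPM in the 2 libraries, above the WT level.

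miR-664-5p had 13 and 12 counts in Ago12_KO (37.2 and 52.3 CPM), 2 and 1 in Dicer_KO (44.2 and 26.7 CPM), 17 and 16 in Drosha_KO (430.3 and 397 CPM), 34 and 55 in Dgcr8_KO (117 and 135 CPM), and 24 and 11 in WT (10.2 and 5.66 CPM). It was highest in Drosha_KO and lowest in WT, and only Ago12_KO and Dicer_KO overlapped among neighbours in that order. For miR-664-3p the counts were 7 and 2 in Ago12_KO (20.04 and 8.72 CPM), 2 and 0 in Dicer_KO (44.2 and 0 CPM), 15 and 11 in Drosha_KO (380 and 273 CPM), 32 and 44 in Dgcr8_KO (111 and 108 CPM), and 8 and 9 in WT (3.39 and 4.63 CPM). Again the Drosha_KO libraries were above those of Dgcr8_KO, and Dicer_KO and Ago12_KO overlapped.

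miR-6516-5p was the rarest of the 6. It had no count in either Ago12_KO library, 0 and 1 in Dicer_KO (0 and 26.7 CPM), 3 and 4 in Drosha_KO (75.9 and 99.2 CPM), 15 and 23 in Dgcr8_KO (51.8 and 56.3 CPM), and 3 and 2 in WT (1.27 and 1.03 CPM). The Drosha_KO and Dgcr8_KO libraries did not overlap each other or any other group, and those of Dicer_KO and WT overlapped. The counting interval of Drosha_KO over Dgcr8_KO was 0.607 to 3.65. The Dgcr8_KO levels also lie under the 66.3 and 80.1 CPM that a count of 0 allows in Dicer_KO. On these counts no difference of either from the other, or from Dicer_KO, is shown.

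miR-3535, from the start of a C/D-type host, had the highest level of the 6 in every group but Dgcr8_KO and a different order of groups. It had 475 and 396 counts in Ago12_KO (1360 and 1726 CPM), 118 and 120 in Dicer_KO (2609 and 3202 CPM), 693 and 356 in Drosha_KO (17539 and 8832 CPM), 232 and 293 in Dgcr8_KO (801 and 717 CPM), and 220 and 159 in WT (93.3 and 81.8 CPM). The order ran Drosha_KO, Dicer_KO, Ago12_KO, Dgcr8_KO and WT, and no neighbours overlapped, although the Drosha_KO libraries themselves differed widely.

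**Figure D2:**
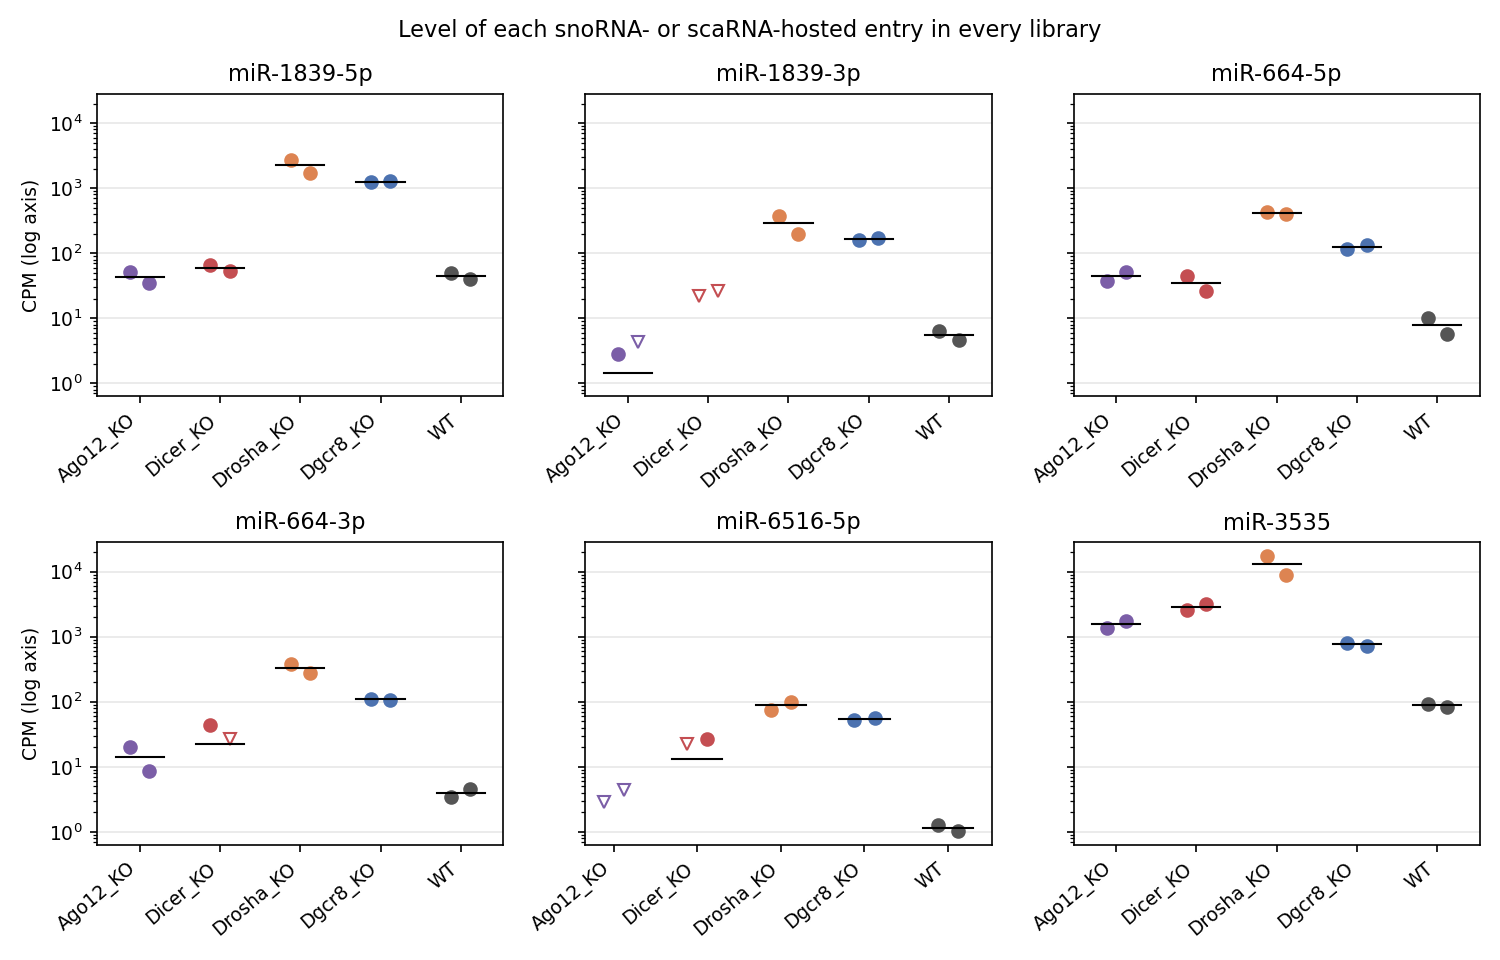
CPM of each entry (log axis) in the 10 libraries, grouped as Ago12_KO, Dicer_KO, Drosha_KO, Dgcr8_KO and WT. Points are libraries, black lines are group means, and open triangles mark a library with no count, drawn at the worth of 1 count. The 5 entries of H/ACA-type hosts peak in Drosha_KO and Dgcr8_KO, and miR-3535 is high in all 4 mutants, from 717 to 17539 CPM against at most 93.3 CPM in WT.

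Summed, the 6 entries made up 0.147 and 0.182% of the counts in Ago12_KO, 0.276 and 0.331% in Dicer_KO, 2.16 and 1.15% in Drosha_KO, 0.249 and 0.246% in Dgcr8_KO, and 0.0164 and 0.0138% in WT. miR-3535 decided this sum in most groups: it held 92.4 and 94.7% of the summed counts in Ago12_KO, 94.4 and 96.8% in Dicer_KO and 81.3 and 76.6% in Drosha_KO, against 57.0 and 59.1% in WT. In Dgcr8_KO it held 32.2 and 29.1%, and miR-1839-5p held more counts than it did in both libraries. Without miR-3535, an alternative added after the values were seen, the mean share was 0.0104% in Ago12_KO, 0.0131% in Dicer_KO, 0.336% in Drosha_KO, 0.172% in Dgcr8_KO and 0.00635% in WT.

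**Figure D3:**
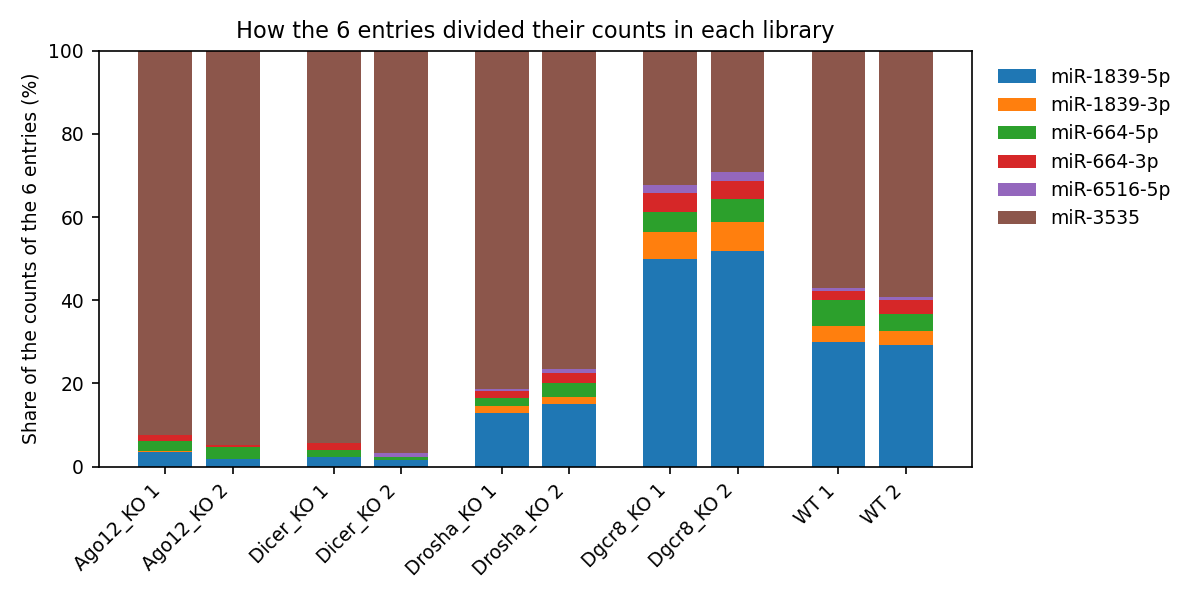
Share of each entry (%) in the summed counts of the 6 entries, 1 bar per library. miR-3535 takes 92.4 to 96.8% in Ago12_KO and Dicer_KO, and 29.1 to 32.2% in Dgcr8_KO, where miR-1839-5p is the largest block.

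Against WT, each mutant asks whether an entry needs the missing protein. In Ago12_KO the log2 fold change over WT was 4.13 for miR-3535 (SE 0.39), 2.42 for miR-664-5p, 1.88 for miR-664-3p and -0.03 for miR-1839-5p (SE 0.38). miR-1839-3p, with 1 Ago12_KO count, stood at a ratio of 0.310 to WT (95% counting interval 0.00753 to 1.90), and for miR-6516-5p the floor of 3 counts lay above the WT level, so no fold can be given. The libraries did not overlap for 3 of the 6 on the higher side, as for 39.3% of the 481 entries, and for 2 on the lower side, as for 42.0%. The 2 were miR-1839-3p and miR-6516-5p, whose WT levels of 1.03 to 6.36 CPM lie under the 8.59 and 13.1 CPM that a count of 0 allows in Ago12_KO, so no lower level is shown. In Dicer_KO over WT, miR-3535 had a log2 fold change of 5.05 (SE 0.41), and miR-1839-5p 0.42 (SE 0.61) on 5 Dicer_KO counts. miR-664-5p, with 3 counts over both Dicer_KO libraries, stood at a ratio of 4.46 (0.877 to 14.1), and miR-664-3p, with 2 counts over both, at 6.12 (0.686 to 25.8). In that comparison 3 of the 6 did not overlap on the higher side and 1 on the lower side, against 16.8 and 70.3% of all entries. The 1 on the lower side was miR-1839-3p, with no count in Dicer_KO and a WT level under what a count of 0 allows there. On the higher side, miR-3535 was joined by miR-1839-5p and miR-664-5p, on 5 and 3 Dicer_KO counts. A single count is worth 22.1 or 26.7 CPM there, above the 5.66 to 10.2 CPM of miR-664-5p in WT. Any count in both libraries thus places that entry higher, and nothing is read from these numbers.

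In Drosha_KO over WT, the log2 fold changes were 7.23 for miR-3535 (SE 0.45), 6.28 for miR-664-3p (SE 0.59), 5.995 for miR-6516-5p (SE 0.87), 5.65 for miR-1839-3p (SE 0.57), 5.65 for miR-664-5p (SE 0.47) and 5.64 for miR-1839-5p (SE 0.38). In Dgcr8_KO over WT, they were 5.30 for miR-6516-5p (SE 0.57), 4.86 for miR-1839-3p (SE 0.48), 4.80 for miR-1839-5p (SE 0.36), 4.70 for miR-664-3p (SE 0.51), 3.94 for miR-664-5p (SE 0.41) and 3.11 for miR-3535 (SE 0.37). All 6 lay above WT without overlap in each, as did 32.0% of entries in Drosha_KO and 40.1% in Dgcr8_KO, a count the choice of entries may itself set. miR-3535 thus had the largest fold of the 6 in Drosha_KO and the smallest in Dgcr8_KO. With counts left unscaled, the Drosha_KO folds of miR-1839-5p, miR-1839-3p and miR-664-5p were -0.12, -0.06 and -0.08 and that of miR-3535 was 1.47, while all 6 in Dgcr8_KO stayed positive and all in Dicer_KO were negative.

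Dicer_KO over Drosha_KO compares the loss of the second cut with the loss of the first. Calls were made with the quasi-likelihood test of edgeR at an adjusted p under 0.05 over the 481 entries (Benjamini-Hochberg). The levels of the 6 in the mutants, relative to WT, were known when they were chosen. The p-values here and in the next comparisons are therefore no independent support for a difference. Apart from miR-1839-5p and miR-3535, the entries reached the 38.5 CPM asked by the filter in both libraries of Drosha_KO and Dgcr8_KO alone. The filter asks for any 2 libraries, and miR-664-5p also reached 38.5 CPM in Ago12_KO replicate 2 (52.3 CPM) and Dicer_KO replicate 1 (44.2 CPM). miR-1839-3p, miR-664-3p and miR-6516-5p thus had to differ from groups where they are low. Against Drosha_KO and Dgcr8_KO the values of all 4 are given as a description, with no p. miR-1839-5p averaged 59.9 ± 9.17 CPM in Dicer_KO and 2248 ± 723 CPM in Drosha_KO (SD, n = 2), a log2 fold change of -5.21 (SE 0.49, edgeR adjusted p = 7.0e-06). miR-3535 was lower by less, at 2906 ± 419 CPM in Dicer_KO and 13186 ± 6157 CPM in Drosha_KO (-2.18 on the log2 scale, SE 0.36, edgeR adjusted p = 0.00054). The call of miR-3535 was lost with DESeq2 size factors (log2 fold change -0.94, edgeR adjusted p = 0.0686) and with DESeq2 (-0.94, DESeq2 adjusted p = 0.0548), over a range of 1.6e-07 to 0.0686 across the alternatives. Of the 4 described entries, miR-1839-3p had no count in Dicer_KO. It was 7.94-fold lower with a floor of 3 counts over the group, and at least 5.96-fold lower by the 95% counting interval. miR-664-5p, with 3 counts over both Dicer_KO libraries, stood at a ratio of 0.0877 (95% counting interval 0.0172 to 0.280). miR-664-3p, with 2 counts over both, had a ratio of 0.0742 (0.00854 to 0.297), and miR-6516-5p, with 1 count, a ratio of 0.138 (0.00306 to 1.07). With these included, 5 of the 6 passed the threshold as lower in Dicer_KO and none as higher, where 30.4% of all entries were called lower and 13.5% higher. Nothing is read from that count, nor from the median of the 6, which was -3.63, or -3.25 with miR-1839-3p at its bound, against -1.03 and -0.074 for all entries.

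Dicer_KO over Dgcr8_KO, which shares the Dicer_KO libraries with the previous comparison, gave 1 call in each direction among the 2 entries given with a p. miR-1839-5p was lower, at 59.9 ± 9.17 CPM in Dicer_KO and 1260 ± 24.0 CPM in Dgcr8_KO (-4.38 on the log2 scale, SE 0.49, edgeR adjusted p = 2.7e-05). miR-3535 was higher, at 2906 ± 419 CPM in Dicer_KO and 759 ± 59.6 CPM in Dgcr8_KO (1.94 on the log2 scale, SE 0.36, edgeR adjusted p = 0.0011), and turned to -1.14 without scaling. As a description, miR-1839-3p was 4.62-fold lower in Dicer_KO with the floor of 3 counts, and at least 3.70-fold lower by the 95% counting interval. The ratio was 0.285 for miR-664-5p (95% counting interval 0.0576 to 0.859), 0.222 for miR-664-3p (0.0264 to 0.831) and 0.222 for miR-6516-5p (0.00548 to 1.31). Over all 6, 2 passed the threshold as lower and 1 as higher, beside 31.2 and 15.8% of all entries. The median of the 6 was -2.15, against -1.87 for all entries, or -0.19 with entries without counts at their bound.

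Drosha_KO over Dgcr8_KO sets the 2 Microprocessor mutants side by side. Here miR-3535 was higher in Drosha_KO, by 4.12 on the log2 scale (SE 0.39, edgeR adjusted p = 4.8e-05), and so was miR-664-5p, at 414 ± 23.5 CPM in Drosha_KO and 126 ± 12.1 CPM in Dgcr8_KO (1.71, SE 0.42, edgeR adjusted p = 0.0164). The other log2 fold changes were 1.58 for miR-664-3p (SE 0.50, edgeR adjusted p = 0.0576), 0.83 for miR-1839-5p (SE 0.31, 0.103), 0.79 for miR-1839-3p (SE 0.48, 0.313) and 0.69 for miR-6516-5p (SE 0.65, 0.538). The 2 calls compare with 8.32% of entries called higher (and 5.61% lower), and all 6 were higher in Drosha_KO without overlap, as were 27.0% of all entries. The median of the 6 was 1.21, against -0.13 for all entries, or 0 with entries without counts at their bound. The call of miR-664-5p was lost without Drosha_KO replicate 1 (edgeR adjusted p = 0.0809), Dgcr8_KO replicate 1 (0.125) or Dgcr8_KO replicate 2 (0.106), over a range of 0.00017 to 0.125, and without scaling all but miR-3535 turned lower in Drosha_KO. miR-664-3p was called with DESeq2 (DESeq2 adjusted p = 0.0017, or 0.0079 with column totals), with DESeq2 size factors (edgeR adjusted p = 0.0426) and with only the groups compared (edgeR adjusted p = 0.0329). It was also called without Ago12_KO replicate 1 or 2 (edgeR adjusted p = 0.0330 and 0.0331) or Dicer_KO replicate 1 or 2 (0.0423 and 0.0415), over a range of 0.0017 to 0.293, and miR-1839-5p with DESeq2 (DESeq2 adjusted p = 0.0328) and without Drosha_KO replicate 2 (edgeR adjusted p = 0.0281, range 0.0013 to 0.552).

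Ago12_KO over Dicer_KO compares cells without Ago1 and Ago2 with cells without Dicer. None of the 6 was called by edgeR, where 38.5% of entries were called higher and 8.94% lower. At an unadjusted edgeR p under 0.05 there were 2, miR-3535 and miR-6516-5p, and DESeq2 called 3, these and miR-1839-5p. For miR-6516-5p this rests on no count in Ago12_KO and 1 count in Dicer_KO. Its ratio of 0 has a counting interval of 0 to 5.57, so no difference is shown for it. miR-3535 came nearest, at 1543 ± 259 CPM in Ago12_KO and 2906 ± 419 CPM in Dicer_KO (log2 fold change -0.91, SE 0.35, edgeR adjusted p = 0.0513). It was called lower in Ago12_KO under TMM factors (edgeR adjusted p = 0.0121), with fragment-like entries out of the library sizes (0.00191), without Drosha_KO replicate 1 (0.0090) or Drosha_KO replicate 2 (0.0082), and under 3 other settings, over a range of 1.7e-08 to 0.202, and turned to 1.87 without scaling. For miR-1839-5p (-0.45, SE 0.64), miR-664-5p (0.28, SE 0.80) and miR-664-3p (-0.65, SE 1.17) the fold rests on 2 to 5 Dicer_KO counts, and the counting intervals of the ratios were 0.281 to 2.48, 0.363 to 6.16 and 0.133 to 6.12.

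**Figure D4:**
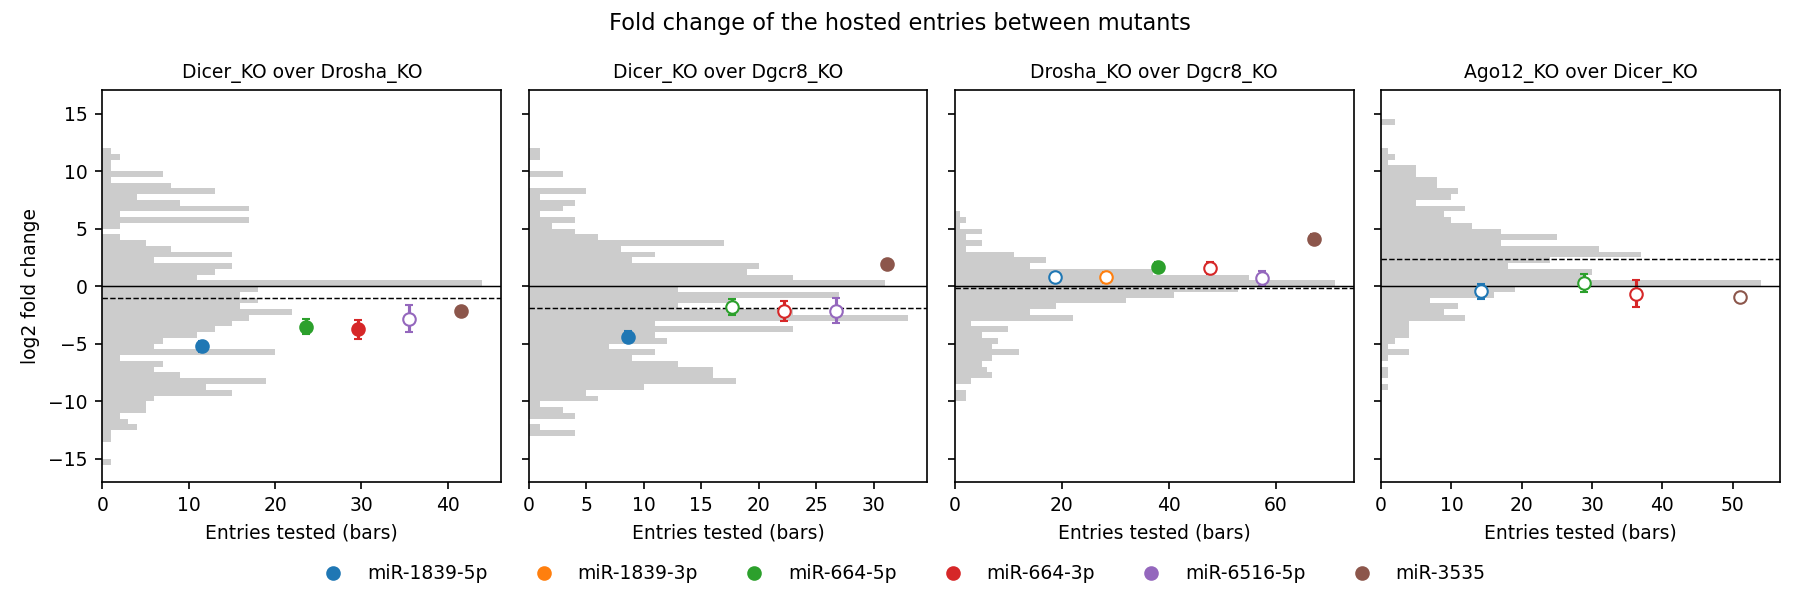
Log2 fold change of each entry (coloured points, with SE) in 4 comparisons between mutants, beside the distribution of all 481 entries (grey bars, counts on the horizontal axis). Filled points have an edgeR adjusted p under 0.05 (in Dicer_KO over Drosha_KO and over Dgcr8_KO, a description for all but miR-1839-5p and miR-3535), dashed lines are the medians of all entries, bars include fitted values of entries with no count in a group, and members with no count in a group are not drawn. miR-3535 lies above 0 in Dicer_KO over Dgcr8_KO (1.94) and in Drosha_KO over Dgcr8_KO (4.12), and below 0 in Dicer_KO over Drosha_KO (-2.18).

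The balance between the arms of a hairpin was followed as the 5p share of its counts, with exact Clopper-Pearson intervals of 95% that cover counting error only. For miR-1839 it was 96.3% in Ago12_KO (81.0 to 99.9%), 88.6% in Drosha_KO (83.4 to 92.6%), 88.3% in Dgcr8_KO (86.1 to 90.2%) and 89.0% in WT (84.1 to 92.9%), and all 5 Dicer_KO counts were 5p. These intervals overlap, which does not test for a shift between arms, and no such test was made for any hairpin. For miR-664 the 5p share was 73.5% in Ago12_KO (55.6 to 87.1%), 55.9% in Drosha_KO (42.4 to 68.8%), 53.9% in Dgcr8_KO (46.0 to 61.7%) and 67.3% in WT (52.9 to 79.7%), again with overlapping intervals, and Dicer_KO had 5 counts in all. miR-6516 differed: the 5p and 3p arms had 0 and 6 counts in Ago12_KO, 1 and 7 in Dicer_KO, 7 and 1 in Drosha_KO, 38 and 5 in Dgcr8_KO, and 5 and 5 in WT. The WT libraries differed, with 3 and 0 counts in replicate 1 and 2 and 5 in replicate 2. The 5p share in Dgcr8_KO was 88.4% (74.9 to 96.1%), above the interval of 0 to 45.9% in Ago12_KO and of 0.316 to 52.7% in Dicer_KO, with no test made over libraries. Counts of miR-6516-3p, whose annotated sequence ends 2 bases before the 3′ end of the host, thus remained in Dicer_KO (2 and 5 counts) where miR-6516-5p had 1.

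A further 16 entries lie in snoRNA or scaRNA genes by position, and 14 of them passed the filter. In Dicer_KO over Drosha_KO, 8 of the 14 passed the threshold as lower and none as higher, beside the 30.4% of all entries called lower, with a median log2 fold change of -3.18, or -0.92 with entries without counts at their bound. Several passed the filter through the groups where they are high, such as miR-3068-5p, miR-1843a-5p and miR-1843b-5p through Drosha_KO and Dgcr8_KO and both arms of miR-3069 through Drosha_KO, so these counts and medians are a description. miR-3068-5p, in a snoRNA gene in an intron of Alkbh1 on chromosome 12, had 0 and 0 counts in Dicer_KO and 435 and 275 in Drosha_KO. It was 245-fold lower with the floor of 3 counts over the group, and at least 198.9-fold lower by the counting interval. miR-3068-3p had 43 and 29 counts in Dicer_KO and 143 and 89 in Drosha_KO (log2 fold change -1.75, SE 0.37, edgeR adjusted p = 0.0028). Both miR-1843a-5p and miR-1843b-5p, in the scaRNA genes Scarna3b and Scarna3a, had no count in Dicer_KO, which puts the first at least 23.8-fold lower and the second at least 14.5-fold lower. miR-677-5p, which starts at base 3 of a snoRNA gene of 72 bases with both C and D box letters, had 69 counts in each group, at 822 ± 182 CPM in Dicer_KO and 866 ± 172 CPM in Drosha_KO (log2 fold change -0.067, SE 0.33, edgeR adjusted p = 0.927). In Dicer_KO over Dgcr8_KO 1 of the 14 was called higher and 4 lower (median -1.75, or -0.042 with bounds), beside 15.8 and 31.2% of all entries. In Drosha_KO over Dgcr8_KO 3 were called higher and none lower (median 0.86), beside 8.32 and 5.61%. In Ago12_KO over Dicer_KO none was called higher and 3 lower (median -0.03, or 0 with bounds), beside 38.5 and 8.94%. Of these 3, miR-1843a-3p had no count in Ago12_KO and 3 and 0 in Dicer_KO. miR-3084-3p, also among the 3 higher in Drosha_KO over Dgcr8_KO, had 2 counts over Ago12_KO and 6 over Dicer_KO. miR-3068-3p had 113 and 72. Nothing is read from these numbers of calls.

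**Figure D5:**
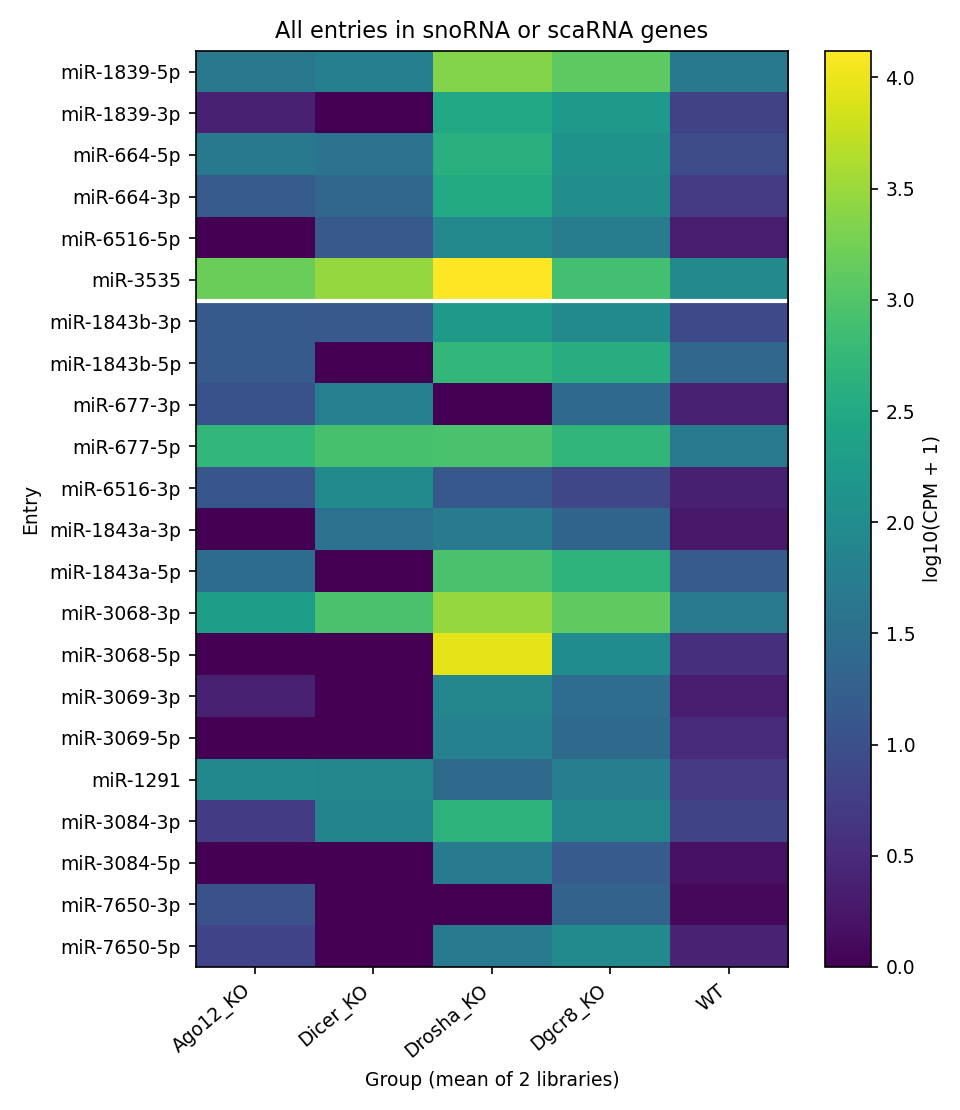
Mean level of all 22 entries in snoRNA or scaRNA genes, as log10(CPM + 1), in Ago12_KO, Dicer_KO, Drosha_KO, Dgcr8_KO and WT (means of 2 libraries). The 6 entries described here stand above the white line. Most 5p entries are dark in Dicer_KO, with no count for 6 of those that end 40 to 44 bases before the host's end, whereas miR-3535 and miR-677-5p are bright, at 2906 and 822 CPM. A count of 0 allows up to 66.3 and 80.1 CPM in the 2 Dicer_KO libraries.

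Entries were also set side by side by their place in the host, a grouping made after the values were seen and not tested. A set of 9 entries, miR-1839-5p, miR-664-5p, miR-6516-5p and 6 others, are 5p arms that end 40 to 44 bases before the 3′ end of the host. Their summed counts over both libraries were 0 to 26 in Ago12_KO, 0 to 5 in Dicer_KO, 4 to 710 in Drosha_KO, 10 to 882 in Dgcr8_KO and 2 to 195 in WT, and 6 of the 9 had no count in Dicer_KO. These counts are not scaled to the library totals. The 6 averaged 0.514 to 22.1 CPM in WT, under the 36.3 CPM of 3 counts over the Dicer_KO group, so no level below WT is shown. Of all 481 tested entries, 136 had no count in Dicer_KO or none in WT. Entries at the very start of a host, miR-3535, miR-677-5p and miR-1291, had 238, 69 and 7 counts in Dicer_KO, the 7 all in replicate 1. Of the 3p entries within 5 bases of the host's 3′ end, miR-3068-3p had 72 counts in Dicer_KO, and the others had 0 to 7. Of the 13 hosts, 8 have the ACA box letters and 2, those of miR-3535 and miR-677, have the C and D box letters. miR-3084 is annotated at 2 loci with the same mature arms, and every count of its arms was even, so its counts are uncertain.

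Lists of other entries known to bypass the Microprocessor, and of entries that overlap longer RNAs, were counted in the same comparisons, as a description over the entries that passed the filter. Of 6 tested mirtrons, which splicing frees as short introns, all 6 were lower in Dicer_KO than in Drosha_KO (median log2 fold change -9.26, or -5.83 with bounds) and in Dicer_KO than in Dgcr8_KO (-8.47, or -5.14). Of 4 capped or Microprocessor-bypassing hairpins, 3 were lower in Dicer_KO than in Drosha_KO (median -7.16, or -4.62 with bounds), and 3 were lower and 1 higher than in Dgcr8_KO. The 4 entries that overlap tRNA or rRNA divided evenly in Dicer_KO over Drosha_KO, with 2 higher and 2 lower. In Drosha_KO over Dgcr8_KO the counts were 1 higher mirtron, no called hairpin of the bypassing list, and 1 higher and 2 lower tRNA or rRNA entries. In Ago12_KO over Dicer_KO 1 mirtron and 2 bypassing hairpins were higher, and 3 tRNA or rRNA entries were lower. Over all entries, the shares called higher and lower were 13.5 and 30.4% in Dicer_KO over Drosha_KO and 15.8 and 31.2% in Dicer_KO over Dgcr8_KO. They were 8.32 and 5.61% in Drosha_KO over Dgcr8_KO and 38.5 and 8.94% in Ago12_KO over Dicer_KO.

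Across the 10 libraries, with log2 CPM (prior count 2), Pearson's r was 0.977 for miR-1839-5p and miR-1839-3p and 0.908 for miR-664-5p and miR-664-3p. Entries of different hairpins reached like values, with 0.908 for miR-1839-5p and miR-664-3p and 0.903 for miR-1839-5p and miR-6516-5p. miR-3535 followed the others least, with r of 0.354 with miR-1839-3p, 0.506 with miR-1839-5p and 0.805 with miR-664-5p. These points share library depth and group, and r is given as a description. Among the tested entries outside the 6, the profile most like that of miR-3535 was miR-677-5p (r = 0.903), followed by miR-205-5p (0.891) and miR-290a-3p (0.882). miR-677-5p lies in the other host with C and D box letters. The 3p arm in that host, miR-677-3p, was tested too but was not among these nearest entries, and had no count in either Drosha_KO library. Nearest to miR-1839-5p were miR-7648-3p (0.992), miR-7035-3p (0.987) and miR-6994-5p (0.981), and nearest to miR-1839-3p were miR-7082-3p (0.999), miR-669h-5p (0.993) and miR-7035-3p (0.993). For miR-664-5p they were miR-7666-3p (0.919), miR-34a-5p (0.914) and miR-6239 (0.914), and for miR-664-3p miR-6239 (0.950), miR-6997-5p (0.931) and miR-6546-5p (0.917). miR-6516-5p was most like miR-7059-5p (0.969), miR-1843b-3p of Scarna3a (0.908) and miR-1981-5p (0.900). The mean of the 6 standardized profiles was closest to miR-6537-3p (0.969), miR-344d-3p (0.957) and miR-6963-3p (0.951).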

How the data were processed

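Small RNA libraries of 10 samples were made with a TruSeq small RNA kit. The authors deposited raw counts of reads for each mature miRNA entry, aligned with Bowtie to mm10 per the submitters' processing notes. The sources used here do not name versions, the counting tool or the treatment of reads with several matches, so reads of longer snoRNA fragments within an entry cannot be told apart from miRNAs.

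The 6 entries and all lists were chosen with earlier results of these data known. Groups came from the titles. The counts were tested with edgeR 4.0.16 (R 4.3.3; quasi-likelihood, all 5 groups in 1 fit, library sizes set to the column totals, 5 residual degrees of freedom, Benjamini-Hochberg adjustment). filterByExpr (minimum count 10, total 15) kept 481 of 1907 entries. The fit was also run on simulated counts with known changes in Drosha_KO alone. That run held no changes in the other groups, and nothing is read from it. Each standard error was derived from the F value of the fold. Hosts were those 13 of the 1558 GENCODE M21 snoRNA and scaRNA genes that share at least a fraction of 0.5 of the shorter feature with a RefSeq hairpin on the same strand, and 1623 entries matched a RefSeq mature sequence. Folds used RNAfold (ViennaRNA 2.7.2) and intervals scipy 1.17.1. Entries named were the 6, all others in such genes, and the 3 most like each profile.

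Alternatives were TMM factors, DESeq2 1.42.0 and its size factors, DESeq2 with column totals, no scaling, fragment-like entries out of the totals, no filter, a mean of at least 10 CPM as the filter, the replicate number as a block, a fit of only the groups compared, and each library left out in turn. Intervals and floors cover counting error only.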

Additional observations from a re-analysis of the deposited data

How the results depend on the processing

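In Dicer_KO over Drosha_KO the calls among the 6 entries numbered 5, or 3 with DESeq2 size factors, 4 with DESeq2, and 5 to 6 with a library left out. In Dicer_KO over Dgcr8_KO they numbered 3, or 6 without scaling and 5 with only the groups compared (3 to 4 with a library left out). In Drosha_KO over Dgcr8_KO they numbered 2, or 6 without scaling (1 higher and 5 lower), 4 with DESeq2, and 1 to 3 with a library left out, where 1 came without Drosha_KO replicate 1, Dgcr8_KO replicate 1 or Dgcr8_KO replicate 2. In Ago12_KO over Dicer_KO none was called, but 1 was with TMM factors, DESeq2 size factors, fragment-like entries out of the library sizes or DESeq2 with column totals, 3 without scaling (all higher), 3 with DESeq2 (all lower), and 0 to 1 with a library left out. Among the 3 with DESeq2, miR-6516-5p had no count in Ago12_KO and 1 count in Dicer_KO. Over all entries, unscaled counts gave 357 calls in Dicer_KO over Dgcr8_KO (226 with column totals), 353 in Drosha_KO over Dgcr8_KO (67) and 358 in Ago12_KO over Dicer_KO (228). DESeq2 gave 106 in Drosha_KO over Dgcr8_KO and DESeq2 size factors 146 in Ago12_KO over Dicer_KO. With a library left out the calls ran from 29 to 91 in Drosha_KO over Dgcr8_KO (29 without Dgcr8_KO replicate 1 or replicate 2) and from 145 (without Dicer_KO replicate 1) to 243 in Ago12_KO over Dicer_KO. The share of calls that were higher was 30.8% in Dicer_KO over Drosha_KO (56.3% with DESeq2), 33.6% in Dicer_KO over Dgcr8_KO (63.8% with DESeq2, 5.32% unscaled), 59.7% in Drosha_KO over Dgcr8_KO (70.8% with DESeq2, 1.42% unscaled) and 81.1% in Ago12_KO over Dicer_KO (44.6% with DESeq2, 98.3% unscaled). Without scaling, the log2 fold change turned to -1.14 for miR-3535 in Dicer_KO over Dgcr8_KO, to -2.30, -2.33, -1.42, -1.54 and -2.40 for miR-1839-5p, miR-1839-3p, miR-664-5p, miR-664-3p and miR-6516-5p in Drosha_KO over Dgcr8_KO, and to 2.32, 2.04 and 1.87 for miR-1839-5p, miR-664-3p and miR-3535 in Ago12_KO over Dicer_KO. In that last comparison, on few counts, miR-1839-3p turned to -2.98 with DESeq2 and -1.36 with DESeq2 and column totals. miR-664-5p turned there to -0.084 with TMM factors, -1.33 with DESeq2 size factors, -0.63 with fragment-like entries out, and -1.34 with DESeq2. With a library left out it ran from -0.011 (without Dicer_KO replicate 2) to 0.714, and miR-664-3p from -1.52 to 6.29 (without Dicer_KO replicate 1). Unscaled values keep the differences in library total by construction, and for the rest the cause was not tested. The summed share was 0.580% in Dicer_KO and 0.260% in Dgcr8_KO when fragment-like entries were taken out. With miR-3535 left out it was 0.0104% in Ago12_KO, 0.0131% in Dicer_KO, 0.336% in Drosha_KO, 0.172% in Dgcr8_KO and 0.00635% in WT. With a library left out it ran from 0.147 to 0.182% in Ago12_KO, 0.276 to 0.331% in Dicer_KO, 1.15 to 2.16% in Drosha_KO, 0.246 to 0.249% in Dgcr8_KO and 0.0138 to 0.0164% in WT. The median log2 fold change of all entries, in the same order of comparisons, was -1.03, -1.87, -0.13 and 2.38 with column totals, -0.69, -1.85, -0.44 and 2.01 with TMM factors, 0, -0.45, 0 and 0.77 with DESeq2 size factors, and -0.85, -4.24, -3.07 and 4.21 without scaling. Of all folds of the 6 between mutants under the alternatives, 429 kept direction and side of the threshold, 28 gained a call, 6 lost one and 17 changed sign. No pairing of the groups by replicate number was detected. Deviations of same-numbered libraries correlated at -0.0648 to 0.136 over 10 pairs of groups, and 1 pair, Dicer_KO with Drosha_KO, passed 0.1. In libraries of low depth this check could miss a pairing. With the replicate number as a block the calls over all entries were 199, 223, 66 and 219 in the order above, with no change in the calls of the 6. Depth limits Dicer_KO, where a count of 0 allows up to 66.3 and 80.1 CPM, and Drosha_KO, where it allows up to 75.9 and 74.4 CPM. In Dicer_KO all of the 6 but miR-3535 had at most 5 counts.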
